A study of Mus musculus with 6 samples.

Results

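The 37 genes of mouse mitochondrial DNA (mtDNA) were examined in hematopoietic stem cells (HSCs) that lack the ribosomal protein Rpl22. They are the rows of the HSC count table whose symbol begins with mt-, 37 of 34573 genes in all, and comprise 13 genes for proteins, 2 for rRNAs and 22 for tRNAs. HSCs were sorted from adult bone marrow as lineage negative Kit+ Sca1+ CD48- CD150+ cells, and their RNA was selected for poly(A) and sequenced in 3 Rpl22-/- and 3 Rpl22+/+ libraries. The Rpl22-/- mice carry a germline loss of Rpl22, so every cell type of the animal and of its marrow niche lacks it, and both groups came from young adult mice on the C57BL/6 background. The sources do not say that the 3 libraries of a genotype came from separate animals, so p-values measure only the spread between these libraries.

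Each library held between 9321123 and 13385850 reads on genes. Rpl22 itself had 449 to 546 reads in the Rpl22-/- libraries and 5031 to 7001 in the Rpl22+/+ libraries, a log2 fold change of -3.75 (SE 0.105, adjusted p = 2.97e-12, edgeR). All 12 HSC markers examined had reads in all 6 libraries, with a summed level of 3099.2 to 3429.0 CPM (counts scaled to a common library size by edgeR's TMM factors) in libraries without Rpl22 and 3191.1 to 3232.5 CPM in those with it, and 1 of them was called higher and 1 lower. Over all genes tested, 3.28% were called higher and 2.29% lower (adjusted p below 0.05, edgeR). Markers of megakaryocytes summed to 1097.2 to 1375.5 CPM in Rpl22-/- libraries against 789.3 to 1036.7 CPM in Rpl22+/+ libraries, and 5 of their 7 genes were called higher. Erythroid markers summed to 36.0 to 39.7 against 32.3 to 33.3 CPM and B cell markers to 27.1 to 29.6 against 23.2 to 25.2 CPM, with Ms4a1 at 0, and no gene of either list was called. Neutrophil markers summed to 100.7 to 226.9 against 66.9 to 105.8 CPM, which overlapped, and 2 of their 10 genes were called higher. The summed markers of T cells, of which Cd3e and Trac were at 0, of macrophages and monocytes, and of other progenitors overlapped between the genotypes. These markers moved beside the mitochondrial results below, and their part in those results was not tested. Where 3 values stand in a row, they are replicates 1, 2 and 3 of a genotype, and Rpl22-/- values come before Rpl22+/+ values. Bulk RNA cannot tell a change in RNA per cell from a change in the makeup of the sorted cells.

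mtDNA is a small circle transcribed along nearly its whole length from both strands. The long primary transcripts are cut into messenger, ribosomal and transfer RNAs, mostly by excision of the tRNAs that lie between the other genes, and most of the mRNAs then receive a poly(A) tail. Its protein genes all encode subunits of the machinery of oxidative phosphorylation, in complex I (NADH dehydrogenase), complex III, complex IV (cytochrome c oxidase) and ATP synthase, whose other subunits come from nuclear genes. The rRNAs and tRNAs serve the ribosomes inside the organelle that translate these mRNAs. Rpl22 belongs to the cytosolic ribosome.

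The members that the results turn on are shown first. mt-Atp8 (chrM:7766-7969, forward strand, GRCm38) encodes a small subunit of ATP synthase and had the largest decrease of the tested mtDNA genes; its last 43 bases, in capitals, also belong to mt-Atp6.
mt-Atp8: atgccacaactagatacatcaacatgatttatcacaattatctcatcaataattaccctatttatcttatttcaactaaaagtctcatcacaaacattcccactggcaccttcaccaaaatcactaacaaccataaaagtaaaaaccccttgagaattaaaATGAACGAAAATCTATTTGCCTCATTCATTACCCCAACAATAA
The remaining sequences are the pair of tRNA genes with the most reads, both on the reverse strand and written 5′ to 3′. mt-Ts1 (chrM:6870-6938), a serine tRNA, took most of the tRNA reads, and its last 3 bases, in capitals, lie opposite the end of mt-Co1. mt-Tp (chrM:15356-15422), the proline tRNA, was the tRNA gene called changed.
mt-Ts1: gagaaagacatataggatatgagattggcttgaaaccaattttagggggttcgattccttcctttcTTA
mt-Tp: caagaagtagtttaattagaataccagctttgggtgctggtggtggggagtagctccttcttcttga
The sequences are those of GENCODE M21 transcripts.

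Of the 37 mtDNA genes, 21 had enough reads for a test, 12 of the 13 protein genes, both rRNA genes and 7 of the 22 tRNA genes. At an adjusted p below 0.05, 7 were higher in Rpl22-/- HSCs, namely mt-Nd1, mt-Nd2, mt-Nd5, mt-Nd6, mt-Cytb, mt-Rnr1 and mt-Tp, and 2 were lower, mt-Atp8 and mt-Nd3. In all, 9 of 21 were called, where 5.57% of the 14004 genes tested were called, 3.28% as higher and 2.29% as lower. The CPM of 11 of the 21 did not overlap between the genotypes, 9 higher and 2 lower, beside 26.9% of all genes tested. The median log2 fold change was 0.45 over the 21 genes, 0.14 over the 12 protein genes, 0.37 over the 2 rRNA genes and 0.69 over the 7 tRNA genes, beside -0.0068 over all genes tested. With at least 10 counts required in every library, 20 genes were tested and the same 9 called. With DESeq2, 8 of the 9 were called (mt-Nd3 had an adjusted p of 0.162) and with limma-voom all 9.

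The number of calls depended on single libraries. It was 6 without Rpl22-/- replicate 2, 1 without Rpl22-/- replicate 3, 3 without Rpl22+/+ replicate 1, 2 without Rpl22+/+ replicate 2 and 1 without Rpl22+/+ replicate 3, while it was 11 without Rpl22-/- replicate 1. Calls over all genes fell from 780 to between 127 and 370 in those first 5 fits and rose to 1720 in the last. mt-Atp8 was called in every fit that left out a library.

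The share of the library taken by mtDNA genes did not part the genotypes. It was 3.37%, 3.83% and 3.61% of gene counts against 3.48%, 3.25% and 3.06%, with means of 3.60% ± 0.232 and 3.27% ± 0.209 (SD, n = 3 each). Rpl22-/- replicate 1 lay below Rpl22+/+ replicate 1, so the groups overlapped, and the difference of 0.338 percentage points had p = 0.2 in an exact two-sided permutation test, whose smallest possible p with 3 against 3 libraries is 0.1. Protein genes held 98.3% to 98.6% of all mtDNA counts. The share of rRNA genes was 0.0310% ± 0.00432 against 0.0252% ± 0.00438 and that of tRNA genes 0.0253% ± 0.00413 against 0.0278% ± 0.00217 (SD, n = 3 each), each with overlapping groups (exact permutation p = 0.2 and 0.5).

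**Figure D1:**
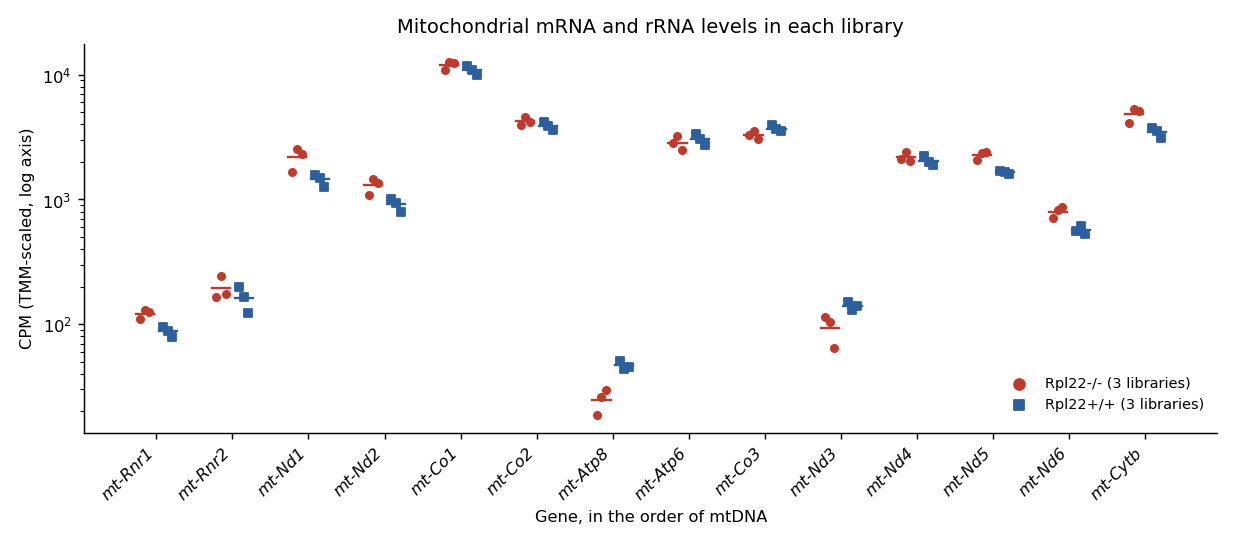
Level of each tested mtDNA protein and rRNA gene in each library, in TMM-scaled CPM on a log axis, with genes in their order on mtDNA. Circles are Rpl22-/- and squares Rpl22+/+ libraries and short lines are group means (n = 3 each). mt-Nd1, mt-Nd2, mt-Nd5, mt-Nd6, mt-Cytb and mt-Rnr1 lie higher in all Rpl22-/- libraries, while mt-Atp8 and mt-Nd3 lie lower in all of them.

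Complex I is the entry of electrons from NADH into the respiratory chain, and mtDNA encodes 7 of its subunits, mt-Nd1 to mt-Nd6 and mt-Nd4l. Of these, 4 were called higher and 1 lower, mt-Nd4 did not pass the test and mt-Nd4l had too few reads for a test. Among the 4 is mt-Nd6, whose sense reads cannot be told from antisense reads, as given below. mt-Nd1 (chrM:2751-3707) had 1669.5, 2557.1 and 2328.3 CPM in Rpl22-/- libraries and 1582.7, 1489.8 and 1263.9 CPM in Rpl22+/+ libraries. The groups did not overlap, but Rpl22-/- replicate 1 stood closer to the Rpl22+/+ libraries than to the other two of its own group. The log2 fold change was 0.60 (SE 0.139, adjusted p = 0.0225, edgeR), the largest rise among the protein genes. mt-Nd2 (chrM:3914-4951) had 1079.3, 1465.4 and 1344.0 CPM against 1008.9, 939.6 and 789.2 CPM, a log2 fold change of 0.51 (SE 0.122, adjusted p = 0.0257), with the same library nearest to the other group.

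mt-Nd5 and mt-Nd6, which lie on opposite strands with their ends overlapping by 14 bases, rose by like amounts. mt-Nd5 (chrM:11742-13565) had 2058.3, 2338.0 and 2387.5 CPM in Rpl22-/- libraries and 1676.7, 1671.1 and 1612.3 CPM in Rpl22+/+ libraries, and its log2 fold change was 0.45 (SE 0.0975, adjusted p = 0.0166). mt-Nd6 (chrM:13552-14070), the only protein gene on the reverse strand, had 708.6, 822.9 and 868.7 CPM against 560.1, 607.3 and 525.0 CPM, a log2 fold change of 0.50 (SE 0.10, adjusted p = 0.0115). In both genes every Rpl22-/- library lay above every Rpl22+/+ library. The strand setting of the counting is not given in the sources used here, so reads of mt-Nd6 and reads antisense to it cannot be told apart.

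mt-Nd3 (chrM:9459-9806) fell. It had 114.3, 103.6 and 63.9 CPM in Rpl22-/- libraries and 152.1, 128.9 and 140.9 CPM in Rpl22+/+ libraries, with no overlap and with Rpl22-/- replicate 3 the lowest. The log2 fold change was -0.58 (SE 0.152, adjusted p = 0.0368). This call held without Rpl22-/- replicate 1 or 2 but was lost without any other library, with DESeq2, and when each library's trend on GC content was removed, alone or with length and a replicate term. The log2 fold change lay between -0.75 and -0.32 over the 19 alternatives. mt-Nd4 had 2176.8 ± 203.5 CPM against 2031.1 ± 163.4 CPM (SD, n = 3 each), with overlapping libraries and a log2 fold change of 0.10 (SE 0.105, adjusted p = 0.625). mt-Nd4l had 5, 1 and 3 reads against 0, 14 and 1, most of them in Rpl22+/+ replicate 2, and no fold is given for it.

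Complex III contains a single mtDNA product, cytochrome b, which carries electrons within the complex. mt-Cytb (chrM:14145-15288) had 4110.3, 5337.1 and 5080.6 CPM in Rpl22-/- libraries and 3735.8, 3543.3 and 3123.6 CPM in Rpl22+/+ libraries. No Rpl22+/+ library reached the lowest Rpl22-/- library, replicate 1, and the log2 fold change was 0.48 (SE 0.119, adjusted p = 0.0296).

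Complex IV, which passes electrons to oxygen, has its catalytic core of 3 subunits from mtDNA, and none of the 3 passed the test. mt-Co1, the most abundant of the protein genes, had 10951.0, 12720.8 and 12397.9 CPM against 11647.1, 10806.3 and 10003.5 CPM and a log2 fold change of 0.15 (SE 0.114, adjusted p = 0.466). mt-Co2 had 4238.0 ± 342.4 CPM against 3878.1 ± 295.8 CPM (SD, n = 3 each) and a log2 fold change of 0.13 (SE 0.107, adjusted p = 0.520). For mt-Co3 the levels were 3310.6, 3546.5 and 3048.8 CPM in Rpl22-/- libraries and 3919.2, 3638.9 and 3506.5 CPM in Rpl22+/+ libraries, with a log2 fold change of -0.16 (SE 0.103, adjusted p = 0.389). The libraries of the genotypes overlapped for all 3 genes.

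ATP synthase has a pair of mtDNA subunits in its membrane part, mt-Atp6 and mt-Atp8, whose genes overlap and whose counts differed. Reads were counted by gene, so these values do not show whether the overlapping genes lie on separate RNAs or on a shared RNA. mt-Atp8 had 240, 311 and 391 reads against 658, 550 and 440, or 18.7, 25.9 and 29.7 CPM against 50.5, 44.1 and 45.8 CPM. The highest Rpl22-/- library stayed below the lowest Rpl22+/+ library on both scales, and the log2 fold change was -0.92 (SE 0.143, adjusted p = 0.00347). The call was kept in all 19 alternatives, with a log2 fold change between -1.07 and -0.63. mt-Atp6 had 2856.4, 3196.6 and 2512.8 CPM against 3329.3, 3041.8 and 2752.2 CPM, overlapping groups and a log2 fold change of -0.09 (SE 0.114, adjusted p = 0.691), which turned to 0.12 when the GC trend was removed. Reads that fall within the 43 bases common to both genes are ambiguous for a counter of whole genes, and how they were treated is not given in the sources used here. The share of each library listed as ambiguous was 0.477%, 0.509% and 0.488% of all counts in Rpl22-/- libraries and 0.459%, 0.439% and 0.438% in Rpl22+/+ libraries, higher in all Rpl22-/- libraries, and its part in the mt-Atp8 result was not tested.

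Mitochondrial rRNAs carry at most short poly(A) tails, and their levels in these poly(A)-selected libraries were low. mt-Rnr1 (chrM:70-1024), the small rRNA, had 109.5, 129.1 and 125.2 CPM in Rpl22-/- libraries and 95.5, 88.8 and 78.3 CPM in Rpl22+/+ libraries, with no overlap and a log2 fold change of 0.47 (SE 0.0959, adjusted p = 0.0133). mt-Rnr2, the large rRNA, had 165.2, 243.7 and 175.4 CPM against 197.9, 164.0 and 122.8 CPM, so that the groups overlapped, and a log2 fold change of 0.27 (SE 0.155, adjusted p = 0.329). Per kilobase, their mean levels in Rpl22+/+ HSCs were 91.7 ± 9.04 and 102.1 ± 23.8 CPM per kb (SD, n = 3), below those of every protein gene other than mt-Nd4l. In Rpl22-/- HSCs they were 127.0 ± 10.9 and 123.1 ± 27.0 CPM per kb, close to mt-Atp8 at 121.4 ± 27.4 CPM per kb (SD, n = 3).

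The tRNA genes are 59 to 75 bases long, and mature tRNAs carry no poly(A) tail. Of the 22, 14 had 0 reads in all 6 libraries. Counting error alone would allow up to 0.228 to 0.312 CPM per library, from 3 counts. How reads that reach into a neighbouring gene were treated is not given in the sources used here. Counts of 0 on genes this short therefore set no limit on the level of their RNA. The genes with reads lay mostly on the reverse strand. Of 8 reverse-strand tRNA genes, 6 had reads (mt-Tq, mt-Ta, mt-Ty, mt-Ts1, mt-Te and mt-Tp), whereas 2 of 14 on the forward strand did (mt-Tw and mt-Tt). Reverse-strand genes held at least 98.6% of tRNA counts in every library. Since the long transcript of the forward-strand genes runs across these reverse-strand tRNA genes in antisense, and the strand setting is not given in the sources used here, sense and antisense reads cannot be told apart.

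mt-Ts1 alone held 82.5%, 76.3% and 68.3% of tRNA counts against 84.8%, 84.6% and 89.4%. Its level was 236.6, 208.2 and 144.2 CPM against 251.8, 214.2 and 242.5 CPM, with overlapping groups and a log2 fold change of -0.27 (SE 0.136, adjusted p = 0.264); without Rpl22-/- replicate 1 it was called lower, at -0.42 (adjusted p = 0.0399). mt-Tp, the last gene on the map, had 36.5, 39.1 and 53.9 CPM against 31.4, 27.1 and 21.6 CPM. All Rpl22-/- libraries were above all Rpl22+/+ libraries, and the log2 fold change was 0.69 (SE 0.157, adjusted p = 0.0208).

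The other tRNA genes had few reads and none passed the test. mt-Te had 41, 74 and 30 reads against 21, 28 and 12, a log2 fold change of 1.16 (SE 0.387, adjusted p = 0.0882), and mt-Tq had 30, 95 and 44 against 43, 28 and 9, a log2 fold change of 1.02 (SE 0.447, adjusted p = 0.193). Both were called when no filter on low counts was used, and mt-Tq also without Rpl22-/- replicate 1. mt-Tq was the tested gene with under 10 reads in some library. mt-Ta (log2 fold change 0.76, adjusted p = 0.228), mt-Ty (0.46, adjusted p = 0.376) and mt-Tw (-0.69, adjusted p = 0.334) had 10 to 62 reads per library. mt-Tt had 10, 25 and 9 reads against 7, 5 and 1 and was not tested.

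**Figure D2:**
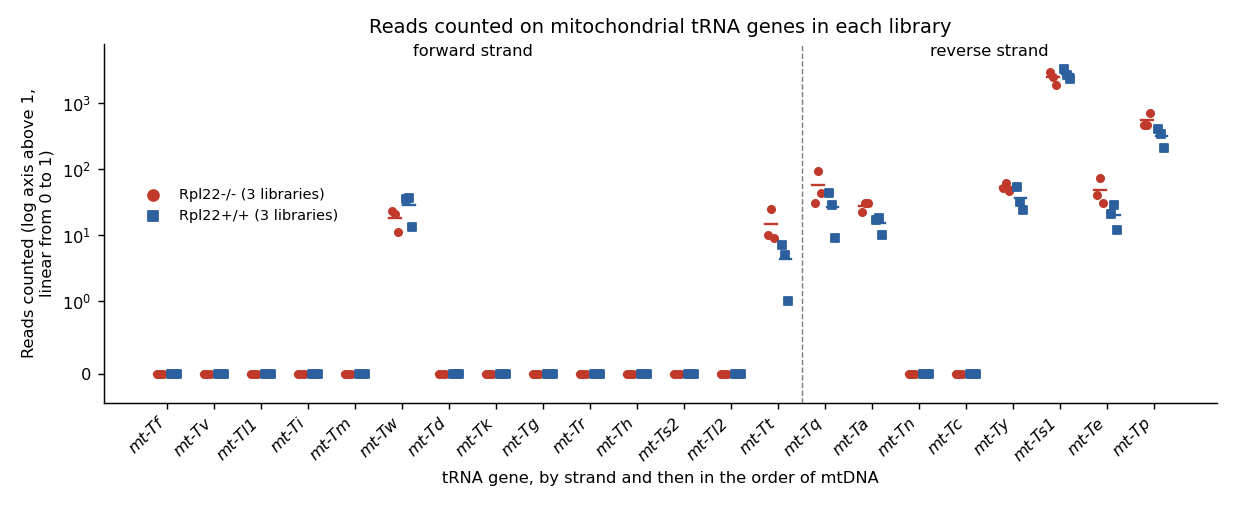
Reads counted on each of the 22 mitochondrial tRNA genes in each library (axis linear from 0 to 1 and log above 1), forward-strand genes on the left and reverse-strand genes on the right of the dashed line. Circles are Rpl22-/- and squares Rpl22+/+ libraries and short lines are group means. The 14 genes at 0 are at 0 in all libraries, and mt-Ts1 and mt-Tp have the most reads.

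Arranged along mtDNA, the log2 fold changes differed between stretches of the map, a description for which position was not tested. From mt-Rnr1 to mt-Nd2, and again from mt-Nd5 to mt-Cytb, every tested protein and rRNA gene had a positive value, and all of these but mt-Rnr2 were called. In the middle, mt-Co1, mt-Co2 and mt-Nd4 had values of 0.10 to 0.15 and did not pass the test, and mt-Atp8 and mt-Nd3 fell. mt-Atp6 and mt-Co3, also in the middle, had values of -0.09 and -0.16 that did not pass the test and that turned to 0.12 and 0.00 when the GC trend was removed. The middle of the map also has near copies in the nuclear genome. Outside it, less alike copies were found for mt-Nd2, mt-Nd5, mt-Nd6 and mt-Cytb, at 92.3% to 96.7% identity. For mt-Nd1 no annotated pseudogene matched at 90% identity or more over at least 50 bases. Aligned among annotated transcripts, mtDNA from 6390 to 11042 (4653 bases) is bounded by the matches of 7 pseudogenes, at 99.71% identity or more, that lie side by side on the reverse strand of chromosome 1, chr1:24611535-24616197 of GRCm38. Their matches take up 4136 of the 4653 bases. Gm28661, Gm10925, Gm28437 and Gm10222 are identical over the bases aligned to mt-Co2, mt-Atp6, mt-Co3 and mt-Nd4l, Gm28438 matches mt-Nd3 with a single difference, and Gm29216 and Gm28439 cover 31.3% of mt-Co1 and 63.6% of mt-Nd4. The first bases of mt-Nd3 (chrM:9459-9476, forward strand) and of Gm28438 (chr1:24613102-24613119, reverse strand) show how alike they are, with the base that differs in capitals, T3C counted from 1 at the 5′ end of mt-Nd3.
mt-Nd3: atTaacctgtacactgtt
Gm28438: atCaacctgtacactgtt
mt-Atp8 and mt-Ts1 lie whole within the same span, called the copied span here, but neither is itself matched by an annotated near copy; of mt-Atp8, the bases it shares with mt-Atp6 are.

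The division of the protein genes by this span was made after their values were seen and is a description with no test. The 5 protein genes outside it, mt-Nd1, mt-Nd2, mt-Nd5, mt-Nd6 and mt-Cytb, were all called higher, and their median log2 fold change was 0.50. Of the 8 that lie wholly or partly within it, 7 were tested, 0 were called higher and 2 were called lower, with a median of -0.09. Over the 19 alternatives the log2 fold changes of the 5 outside ran from 0.38 to 0.78, and all 5 were called in 13 of the 19. Without Rpl22-/- replicate 3, Rpl22+/+ replicate 1 or Rpl22+/+ replicate 3, 0 of the 5 were called.

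As a share of gene counts, the 5 genes outside the span took 0.968%, 1.21% and 1.18% in Rpl22-/- libraries and 0.861%, 0.831% and 0.754% in Rpl22+/+ libraries, with no overlap. Each of these 5 genes already lay higher in all Rpl22-/- libraries by CPM, so their summed share is not separate evidence. The genes within it took 2.34%, 2.56% and 2.38% against 2.56%, 2.37% and 2.26%, which overlapped. Reads that did not align uniquely, in which reads of a copied sequence can be placed, made up 7.49%, 7.83% and 7.56% of all counts in Rpl22-/- libraries and 7.94%, 8.23% and 7.74% in Rpl22+/+ libraries, and the groups overlapped. Of the 7 near copies only Gm10222, the copy of mt-Nd4l, has a row in the count table, and it had 16, 27 and 9 reads against 17, 28 and 15, more than mt-Nd4l itself in each library. Gm13340, a less alike copy of mt-Co1 on chromosome 2 at 97.6% identity, had 10, 20 and 25 reads against 47, 64 and 31. The part of the copied span in the difference between the gene groups was not tested.

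**Figure D3:**
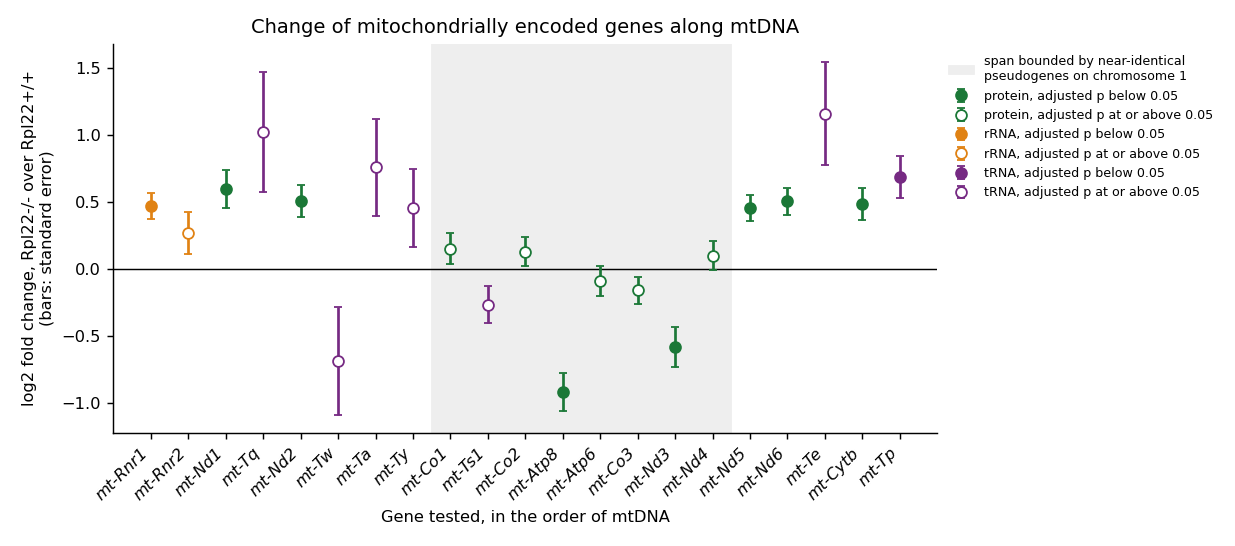
Log2 fold change of Rpl22-/- over Rpl22+/+ HSCs for the 21 tested mtDNA genes in map order, by class (protein, rRNA, tRNA), with bars of 1 standard error. Filled points have an adjusted p below 0.05 (edgeR), and the shaded band marks genes that lie wholly or partly in the span bounded by near copies on chromosome 1. The called protein genes outside the band lie between 0.45 and 0.60, and those within it, mt-Atp8 and mt-Nd3, at -0.92 and -0.58.

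**Figure D4:**
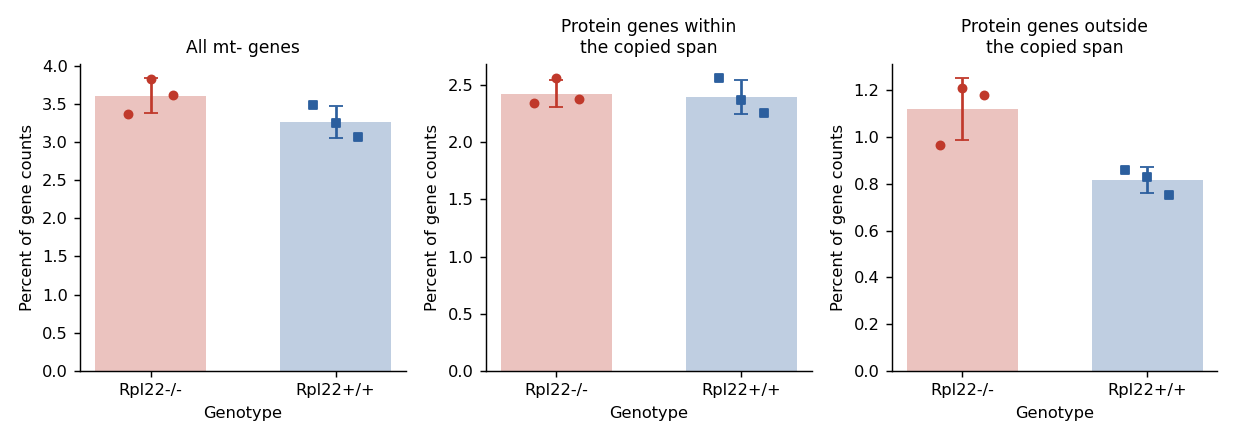
Share of gene counts, in percent, taken by all mtDNA genes, by the 8 protein genes in the copied span and by the 5 outside it, with a separate axis from 0 for each panel. Bars are means with SD (n = 3) and points are libraries. The genotypes overlap in the first and second panels and not in the third, where Rpl22-/- libraries lie at 0.968% to 1.21% and Rpl22+/+ libraries at 0.754% to 0.861%. The genes of the third panel each lay higher in all Rpl22-/- libraries by CPM, so it is not separate evidence.

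The pool of mtDNA protein reads sums to 100% in each library, so a rise of some genes lowers the share of others. Within it, 10 of the 13 genes did not overlap between the genotypes, 5 higher and 5 lower. By CPM, a different measure, 26.9% of all genes tested did not overlap. Each of the 10 had an exact two-sided permutation p = 0.1, the smallest possible with 3 against 3 libraries. The 5 higher are the protein genes called higher by CPM, so their rise in the pool is not separate evidence. Of the 5 lower, mt-Atp8 and mt-Nd3 were also called lower by CPM. The CPM of mt-Co2, mt-Atp6 and mt-Co3 overlapped between the genotypes, so their lower shares do not show a lower level. mt-Cytb differed most upward, from 10.9% ± 0.230 in Rpl22+/+ to 13.4% ± 0.800 in Rpl22-/- HSCs, and mt-Nd1 went from 4.55% ± 0.199 to 6.01% ± 0.815 (SD, n = 3 each). mt-Co3 differed most downward, from 11.7% ± 0.301 to 9.18% ± 0.827, and mt-Atp6 went from 9.59% ± 0.184 to 7.93% ± 0.895. mt-Nd2, mt-Nd5 and mt-Nd6 were the other genes with higher shares, and mt-Co2, mt-Atp8 and mt-Nd3 the others with lower ones. mt-Co1 held 33.3% ± 0.857 against 34.1% ± 0.139 and overlapped. The shares varied more among Rpl22-/- than among Rpl22+/+ libraries for these 5 genes. The 5 genes outside the copied span together made up 29.2%, 32.0% and 33.1% of the pool in Rpl22-/- libraries and 25.2%, 25.9% and 25.0% in Rpl22+/+ libraries.

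Per kilobase of gene, the order of the protein genes over all 6 libraries ran from mt-Co1 at 7392.3 CPM per kb through mt-Co2 (5932.8), mt-Co3 (4458.0), mt-Atp6 (4329.2), mt-Cytb (3632.1), mt-Nd1 (1896.8), mt-Nd4 (1526.8), mt-Nd6 (1314.3), mt-Nd5 (1073.1), mt-Nd2 (1064.0), mt-Nd3 (337.0) and mt-Atp8 (175.5) to mt-Nd4l at 1.08 CPM per kb. Neighbours in this order had separate ranges over the 6 libraries only between mt-Co2 and mt-Co3, mt-Cytb and mt-Nd1, mt-Nd2 and mt-Nd3, and mt-Atp8 and mt-Nd4l. In the means of Rpl22+/+ HSCs the order was the same, but in those of Rpl22-/- HSCs mt-Cytb (4233.1) stood above mt-Co3 (4211.7) and mt-Atp6 (4192.8), and mt-Nd2 (1248.8) above mt-Nd5 (1239.7), by less than the SD between libraries. The counts per kilobase on the complex IV genes and on mt-Atp6 thus stood above those on the complex I genes. They are counts on genes and do not measure separate RNAs where genes overlap. The lowest 3, mt-Nd3, mt-Atp8 and mt-Nd4l, are also the shortest protein genes, at 348, 204 and 297 bases, and the called decreases were in 2 of these 3.

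The nuclear genes that act on mtDNA were examined beside its own. Of 14 genes for mtDNA transcription and replication, edgeR called 0; their median was -0.08 on the log2 scale, with 3 genes at an unadjusted p below 0.05, and DESeq2 and limma-voom also called 0. Polrmt, the mitochondrial RNA polymerase, had 35.7 ± 1.82 CPM against 36.9 ± 3.01 CPM (SD, n = 3 each) and a log2 fold change of -0.05 (SE 0.108, adjusted p = 0.826). Tfam, which packages mtDNA and starts its transcription, had 77.8 ± 2.83 against 87.6 ± 4.16 CPM (SD, n = 3 each) and lay lower in all Rpl22-/- libraries, yet its log2 fold change of -0.17 (SE 0.0835, adjusted p = 0.235) did not pass the test. Nearest to the threshold were Mterfd1, a member of the mitochondrial termination factor family, at -0.29 (adjusted p = 0.110) and Tfb1m, an rRNA methyltransferase, at 0.35 (adjusted p = 0.131).

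Of 39 genes for the processing, stability and decay of mitochondrial RNA, edgeR, DESeq2 and limma-voom each called 0; their median was -0.04 on the log2 scale, with 5 at an unadjusted p below 0.05. Those with the smallest p belong to the FASTK family of mitochondrial RNA-binding proteins, Fastkd5 at -0.68 (SE 0.217, adjusted p = 0.0777) with 5.57 ± 1.41 against 8.85 ± 0.985 CPM, and Fastkd2 at -0.29 (SE 0.0988, adjusted p = 0.0892) with 37.2 ± 1.61 against 45.6 ± 2.17 CPM (SD, n = 3 each). Both lay lower in all Rpl22-/- libraries. Lrpprc and Slirp, which form a complex that stabilises mitochondrial mRNAs, had log2 fold changes of -0.09 (adjusted p = 0.627) and 0.04 (adjusted p = 0.805).

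Of 11 tested regulators of mitochondrial biogenesis, 1 was called, and the median was 0.10. With 5.57% of all genes tested called, 1 of 11 says nothing about the list. The called gene was Myc, a transcription factor that drives cell growth, with 398.4 ± 36.1 CPM against 269.6 ± 62.1 CPM (SD, n = 3 each) and a log2 fold change of 0.56 (SE 0.133, adjusted p = 0.0243). Ppargc1a, a coactivator of mitochondrial genes, had 3.16 ± 0.823 against 4.37 ± 0.760 CPM and a log2 fold change of -0.47 (SE 0.278, adjusted p = 0.337).

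Among 73 tested nuclear genes listed for complexes I, III, IV and ATP synthase, 16 rose and 1 fell, where 3.28% of all genes tested were called higher and 2.29% lower, and the median log2 fold change was 0.15. The list includes Atpif1, an inhibitor of ATP synthase and not a subunit, which is counted under ATP synthase below. It was called higher at 0.30 (adjusted p = 0.0436, edgeR) and was named after its values were seen. The 8 with the smallest p were Uqcr11, Ndufa3, Cox8a, Ndufa7, Ndufa1, Atp5d, Ndufa12 and Ndufa11, with log2 fold changes of 0.54 to 1.10. The gene called lower was Cox5a, a complex IV subunit, at -0.65 (SE 0.137, adjusted p = 0.0154), which was named after its values were seen. Complex II, which has no mtDNA subunit, had 0 of 4 genes called by edgeR, DESeq2 and limma-voom, 1 at an unadjusted p below 0.05 and a median of 0.01; its smallest p was that of Sdhb, the iron-sulfur subunit, at 0.30 (adjusted p = 0.122), followed by Sdhd at -0.05 (adjusted p = 0.796).

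By complex, the nuclear and mtDNA medians of log2 fold change were 0.25 and 0.48 for complex I (36 and 6 genes tested), 0.09 and 0.48 for complex III (9 and 1), 0.12 and 0.13 for complex IV (12 and 3) and 0.02 and -0.51 for ATP synthase (16 and 2). Complex I thus had the highest nuclear median and, with complex III, the highest mtDNA median, while for ATP synthase the mtDNA value rests on mt-Atp6 and mt-Atp8 alone. No difference between complexes or between the nuclear and the mtDNA genes was tested. Counts of these nuclear genes called, 18 over all 5 lists, were 11 and 7 without Rpl22-/- replicates 2 and 3 and 9 without Rpl22+/+ replicate 2 or 3, and 28 with no filter on low counts.

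**Figure D5:**
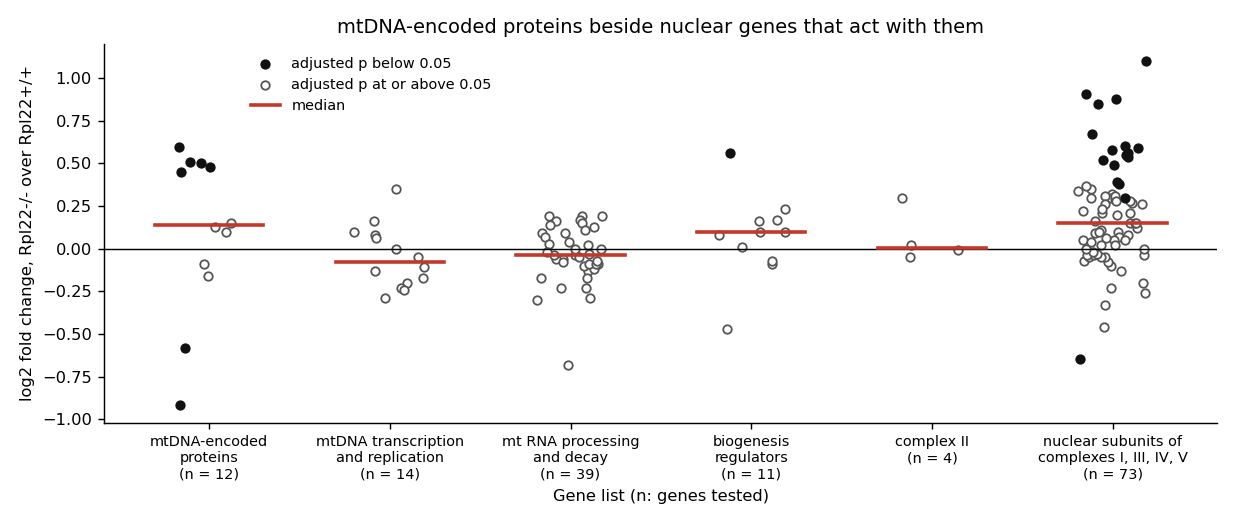
Log2 fold change of Rpl22-/- over Rpl22+/+ HSCs for the tested mtDNA protein genes and for 5 lists of nuclear genes that act with them. Filled points have an adjusted p below 0.05 (edgeR), open points do not, and lines are medians, which run from -0.08 for mtDNA transcription and replication to 0.15 for nuclear subunits. The mtDNA protein genes spread from -0.92 to 0.60.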

How the data were processed

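Per the labels and the study's methods, RNA was extracted with TriReagent and libraries were made with a TruSeq kit. The authors ran FastQC and TopHat2 2.1.1 (mm10) and deposited HTSeq counts per gene, with no normalization. The HTSeq version, strand setting, overlap mode and annotation are not given in the sources used here. HTSeq's 5 closing totals were left out of library sizes and tests. Of all counts, 39.1% to 41.4% lay on genes and 50.3% to 52.7% on no feature. What part of the latter was antisense to genes was not tested.

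The counts were compared in edgeR 4.0.16 (R 4.3.3) by the quasi-likelihood test on genotype with TMM factors and filterByExpr (minimum count 10), with Benjamini-Hochberg adjustment over 14004 genes. SE is the size of the log2 fold change divided by the root of F. Shares were compared by an exact permutation test. Genes called had an adjusted p below 0.05. The sources state a DESeq2 test, and DESeq2 1.42.0 and limma-voom 3.58.1 were run as alternatives with other factors, filters, GC and length corrections (lowess, span 0.3), a replicate term and each library left out. The fits were first tested on simulated data.

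Positions and sequences came from GENCODE M21 (GRCm38, the assembly named mm10). Copies were found among its transcripts, not the genome, with BLAST 2.17.0. Genes named were all mtDNA protein and rRNA genes, tRNA genes tested or with 10 counts in any library, nuclear copies with 10 counts, Polrmt, Tfam, Lrpprc, Slirp and Ppargc1a, and of each nuclear list up to 8 called genes by p or otherwise the 2 with the smallest p. The members and gene lists were chosen with earlier results of these data known.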

Additional observations from a re-analysis of the deposited data

How the results depend on the processing

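The direction of every called mtDNA gene held in all 19 alternatives. Of the comparisons of single mtDNA genes, 351 kept their side of the threshold, 40 lost the call, 4 gained it and 3 changed sign, the last in genes that were not called: mt-Atp6 at 0.12 and mt-Co3 at 0.00 with the GC trend removed, and mt-Atp6 at 0.03 with GC and length trends removed and a replicate block. The number of mtDNA genes called was 9, 5 with the length trend removed, and 1 to 11 with each library left out. The median of mtDNA protein genes was 0.14, 0.31 with the GC trend removed and 0.25 with GC and length trends removed and the block; leaving out a library gave 0.08 to 0.20. The nuclear genes called were 18, 28 with no filter, and 7 to 26 with a library left out. The difference in mtDNA share was 0.225 to 0.456 percentage points, and 10 to 12 genes were apart within the pool, with a library left out. The cause of these shifts was not tested, beyond the smaller number of libraries in the leave-one-out fits.

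The labels do not say whether same-numbered libraries were handled together. Deviations from the group means correlated at -0.103, 0.0549 and 0.0448 between same-numbered libraries, and at -0.171 to 0.132 between differently numbered ones. With the replicate block, the same 9 mtDNA genes were called, along with 20 nuclear genes, the median of protein genes was 0.14, and 904 of all genes were called in place of 780. The mtDNA share and the pool came from no model fit, so they have no paired value. Low counts limit most tRNA genes and mt-Nd4l, and why their counts are low was not tested. With 3 libraries a genotype the exact tests cannot go below 0.1.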
